A study of Mus musculus with 4 samples.

Results

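G2 and mitosis genes are the transcripts that a dividing cell makes from late S phase until the daughter cells part. The group described here is a fixed list of 45 such genes, chosen by symbol from the study's gene tables with the condition that a gene reached 1 TPM (a transcript's share of the library, corrected for its length) in at least 1 library. All 45 of 45 listed genes met it, out of 24411 genes in each table, and all 45 were among the 11167 genes that entered the test. RNA was sequenced from 4 cultures of 4T1 cells, a mouse line founded from a mammary carcinoma. The 2 control libraries are labelled only as control; the protocols name an untransduced culture and a line carrying Cas9 from a lentivirus under blasticidin selection as RNA sources, and the titles do not say which control is which. The 2 libraries labelled CD95ko each come from 1 clone grown from a single sorted cell of the Cas9 line, after transfection of a guide pair against exon 9 of the gene for the death receptor CD95 (Fas); per the protocols, the deletion was checked by genomic PCR. A clone can differ from its parent line in ways unrelated to the edited gene, and with 1 clone per library these cannot be told apart from the effect of the edit.

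Entry into mitosis is driven by CDK1 bound to cyclin A or cyclin B, which PLK1, the Aurora kinases and the CDC25 phosphatases help to activate. The spindle checkpoint holds anaphase back until every kinetochore is attached, after which the anaphase-promoting complex marks cyclin B and securin for degradation and cytokinesis follows. Most of these genes are silent in resting cells and are switched on late in the cycle by the MuvB complex with B-MYB and FOXM1, so in bulk RNA their level is widely read as a sign of how many cells are cycling. In such RNA, fewer cells in G2 and mitosis and less RNA per cell cannot be told apart.

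The libraries had between 11193 and 12010 genes above 0, and TPM carries no read depth. Fas was at 49.4 and 39.2 TPM in the controls, at 15.8 TPM in CD95ko 1 and at 49.5 TPM in the library labelled CD95ko 2, so the transcript was not lower in the latter, and directions below refer to libraries as labelled; gene-level TPM does not show whether exon 9 is missing. Control 2 stood apart in its median over the genes tested (16.3 TPM, against 21.3 to 22.9 TPM in the other 3 libraries). The 10 mammary epithelial markers were all above 1 TPM in every library. Their summed level was 6342 and 6810 TPM in the controls and 10228 and 14270 TPM in the libraries labelled CD95ko. They did not move together: the keratins, Epcam, Cdh1 and, by a small margin, Cldn4 were higher in both libraries labelled CD95ko. Cldn3 was lower in both (671 and 615 against 441 and 336 TPM), and Cldn7 and Esrp1 overlapped between groups. Of 11 immune markers found, 9 or 10 were at 0 in each library, Ptprc, Cd3e and Itgam among them, with a summed level of 42.1 and 45.8 TPM in the controls and 40.1 and 151 TPM in the libraries labelled CD95ko, nearly all from Cd68 and Csf1r. Endothelial markers summed to at most 0.28 TPM and fibroblast and pericyte markers to at most 4.52 TPM in any library.

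The members share promoter elements that the list did not use. Promoter windows of 300 bases (250 before the start of the gene and 50 after it, RefSeq, GRCm38.p6, which is the mm10 build of the deposited tables) were found for 36 of the 45 members. The other 9 are Aurkb, Ccna2, Cdc25c, Dlgap5, Foxm1, Incenp, Kif20a, Smc4 and Tpx2. The letters TTTGAA on either strand, the core of the cell cycle genes homology region to which MuvB complexes bind, occurred in 25 of these 36 genes. By windows this was 28 of 39 (71.8%), against 17.9% of all 32851 windows in the table. CCAAT on either strand, the box bound by the factor NF-Y, occurred in 26 genes and 29 windows (74.4%), against 37.4% of all windows, and both motifs together in 24 windows (61.5%, against 6.95%). The variant TTTAAA, which reads the same on both strands, was in 9 genes and 23.1% of member windows, against 13.2% of all. Of the 37 matches to TTTGAA, 26 began within 50 bases of the start and 19 before it. The windows end 50 bases after the start, so every match after it falls within that distance. The 68 matches to CCAAT lay mostly upstream, with 65 before the start and a median position of -72.5. Most bases of each window also lie before the start. The same base can belong to both kinds of match where they touch, 3 genes contribute more than 1 window, and a match is a run of letters, not a measured binding site. None of these 3 motifs was found in the windows of Mad2l1, Ncaph, Nuf2, Nusap1 and Pttg1.

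**Figure D1:**
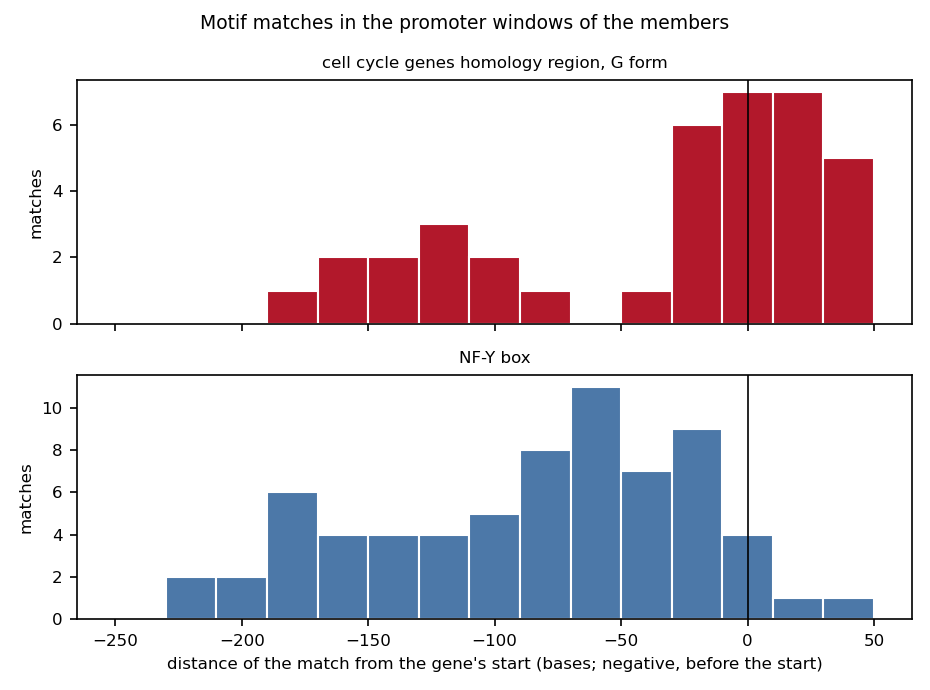
Number of motif matches (vertical axis) by distance in bases from the start of the gene (horizontal axis, negative before the start) in 39 promoter windows of 36 members; the upper panel shows the homology region core and the lower panel the NF-Y box. Of 37 matches to the homology region core, 26 began within 50 bases of the start and 19 before it. The windows end 50 bases after the start, so every match after it falls within that distance. NF-Y boxes lie mostly before the start, as do most bases of the windows.

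The 130 bases before the RefSeq start are shown for 7 members that come up in the comparison. Of these, 6 were lower and 1 (Ncapd2) was higher in both libraries labelled CD95ko. Gene positions given further below come from GENCODE, whose starts differ. By those, the stretches of Cdk1, Prc1, Ube2c and Ncapd2 lie partly, and that of Bub3 wholly, inside the gene. Prc1 and Bub3 have 2 windows each, and the one with more matches in these 130 bases was chosen. In the other Bub3 window the matches lie 156 to 198 bases before its start, outside such a stretch. Each is written 5′ to 3′ on the gene's own strand, with matches to any of the 3 motifs, on either strand, in capitals.
Aurka (chr2:172370571-172370700, reverse strand): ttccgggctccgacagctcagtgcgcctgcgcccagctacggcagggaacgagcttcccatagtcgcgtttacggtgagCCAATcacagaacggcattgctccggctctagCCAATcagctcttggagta
Plk1 (chr7:122159305-122159434, forward strand): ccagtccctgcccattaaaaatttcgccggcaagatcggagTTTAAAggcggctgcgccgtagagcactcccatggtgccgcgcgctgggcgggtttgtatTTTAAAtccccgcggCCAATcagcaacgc
Cdk1 (chr10:69352913-69353042, reverse strand): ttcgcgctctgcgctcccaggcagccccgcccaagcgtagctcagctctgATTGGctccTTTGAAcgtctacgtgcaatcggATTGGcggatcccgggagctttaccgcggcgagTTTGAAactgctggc
Prc1 (chr7:80294346-80294475, forward strand): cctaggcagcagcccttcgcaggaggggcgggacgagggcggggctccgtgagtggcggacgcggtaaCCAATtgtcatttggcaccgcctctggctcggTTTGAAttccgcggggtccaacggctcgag
Bub3 (chr7:131560240-131560369, forward strand): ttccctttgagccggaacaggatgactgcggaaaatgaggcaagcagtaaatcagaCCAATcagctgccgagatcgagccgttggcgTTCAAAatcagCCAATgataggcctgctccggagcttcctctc
Ube2c (chr2:164769799-164769928, forward strand): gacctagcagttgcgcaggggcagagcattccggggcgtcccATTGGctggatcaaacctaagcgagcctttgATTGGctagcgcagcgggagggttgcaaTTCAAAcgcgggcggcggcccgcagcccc
Ncapd2 (chr6:125191587-125191716, reverse strand): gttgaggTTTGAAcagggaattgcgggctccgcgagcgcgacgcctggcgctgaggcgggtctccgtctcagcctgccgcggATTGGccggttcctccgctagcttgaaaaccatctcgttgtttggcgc

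In Aurka and Plk1 the match to TTTGAA lies after the RefSeq start, at positions 33 and 31, outside the stretch shown. In the comparison described next, 17 of the 25 genes with TTTGAA and 8 of the 11 without it had a negative log2 fold change, with medians of -0.36 and -0.08, a difference that was not tested.

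The question put to the expression values was whether the G2 and mitosis transcripts differ between the libraries labelled CD95ko and the controls. As a group they lay slightly lower, with a median log2 fold change of -0.18. The controls themselves differed by more (median of control 2 minus control 1, -0.29). CD95ko 1 was not below control 2 (median difference 0.04, and 0.36 over all genes). On a list of 80 other G2 and mitosis genes the median log2 fold change was 0.05. Aurka, Plk1, Prc1 and Cdk1 were at 45.1% to 55.9% of the control mean. Kif20a, Ncapd2 and Dlgap5 were at 186% to 194% of it, and most other members differed by less. The 45 members together took 0.294% and 0.251% of all TPM in the controls, 0.242% in CD95ko 1 and 0.218% in the library labelled CD95ko 2. Such a share also depends on the other genes of a library. Ribosomal protein genes took 24.6% and 29.5% of all TPM in controls 1 and 2, 25.0% in CD95ko 1 and 22.7% in the library labelled CD95ko 2. In the test across all genes (limma on log2(TPM + 1), Benjamini-Hochberg adjustment), 0 of 45 members passed an adjusted p of 0.05, against 6 of 11167 genes (0.0537%), so no member is called changed. The smallest adjusted p among the members was 0.229, for Aurka. At an unadjusted p under 0.05 there were 4 lower members (8.89%, against 5.68% of all genes) and 0 higher members (against 9.25% of all genes). The number of calls rested on single libraries: without CD95ko 1, 1034 of all genes passed the adjusted threshold, and 3 members with them (Aurka, Cks2 and Plk1, limma adjusted p from 0.0337 to 0.0469, all lower). With any other library left out, 0 members passed.

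The median log2 fold change of the members was -0.18, while that of all genes tested was 0.13, so the members' median lay 0.31 below it. Of the 45 members, 30 had a negative value (66.7%, against 42.6% of all genes). The 2 groups did not overlap for 15 lower members (33.3%, against 18.3% of all genes) and for 6 higher members (13.3%, against 29.2% of all genes). The 15 were Aurka, Plk1, Cdk1, Prc1, Ube2c, Bub3, Smc4, Incenp, Ect2, Cenpa, Anln, Mki67, Nuf2, Birc5 and Tpx2, and the 6 were Kif20a, Ncapd2, Dlgap5, Cdc25b, Ccnb2 and Bub1. The scaling of the libraries mattered for these counts, because the median of all genes moved from 0.13 to 0.002 under quantile normalization and to -0.07 when each library was centred on its median. All genes at an unadjusted p under 0.05 split into 634 lower and 1033 higher as deposited, 895 and 967 under quantile normalization, and 1041 and 807 after centring. All 15 lower members stayed apart under both scalings, within totals of 24 and 26 lower members (against 25.3% and 28.0% of all genes). Before centring, the median log2(TPM + 1) was 4.11 in control 2, against 4.54 in control 1, 4.58 in CD95ko 1 and 4.48 in the library labelled CD95ko 2. Centring therefore mainly raises control 2, so it could hardly make a lower member overlap, and that all 15 were kept under it says little. Under quantile normalization the members' median lay 0.32 below that of all genes; centring shifts every fold change alike and cannot alter this distance. Of the 6 higher members, Ccnb2 and Cdc25b overlapped after centring.

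**Figure D2:**
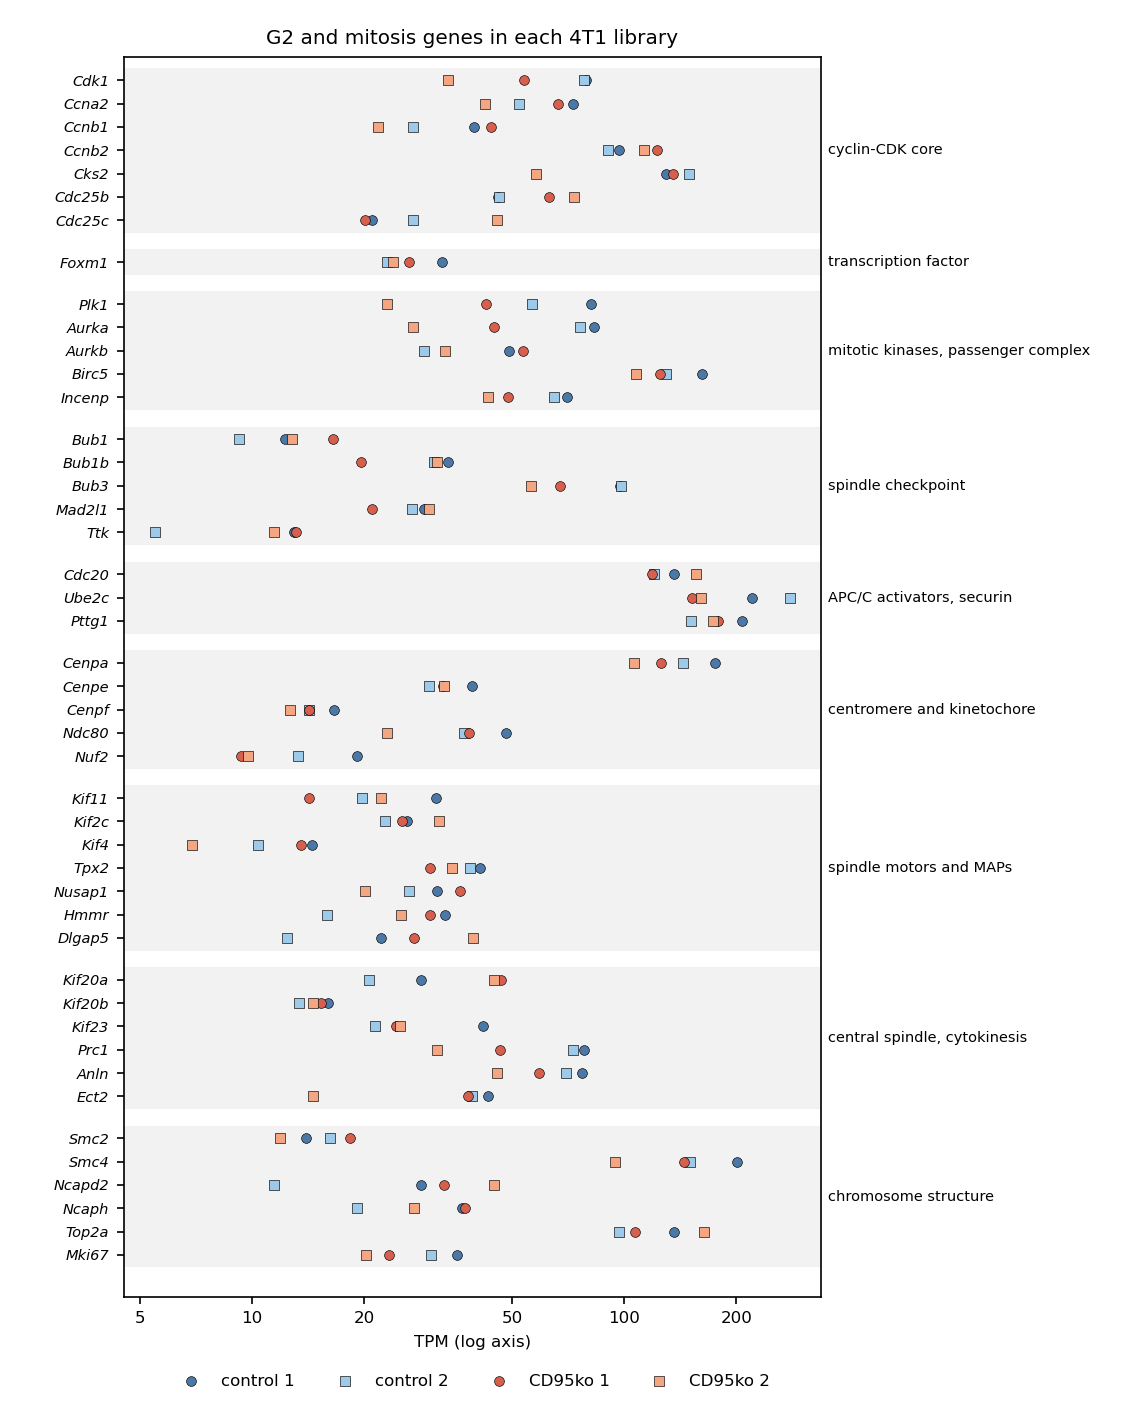
TPM (horizontal axis, log scale) of the 45 members in each library, grouped by role; circles are library 1 and squares library 2, in dark and light blue for controls and in red and orange for libraries labelled CD95ko. The groups overlap in 24 members, while Aurka, Plk1, Cdk1, Prc1 and Bub3 show the red and orange points left of both blue points.

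**Figure D3:**
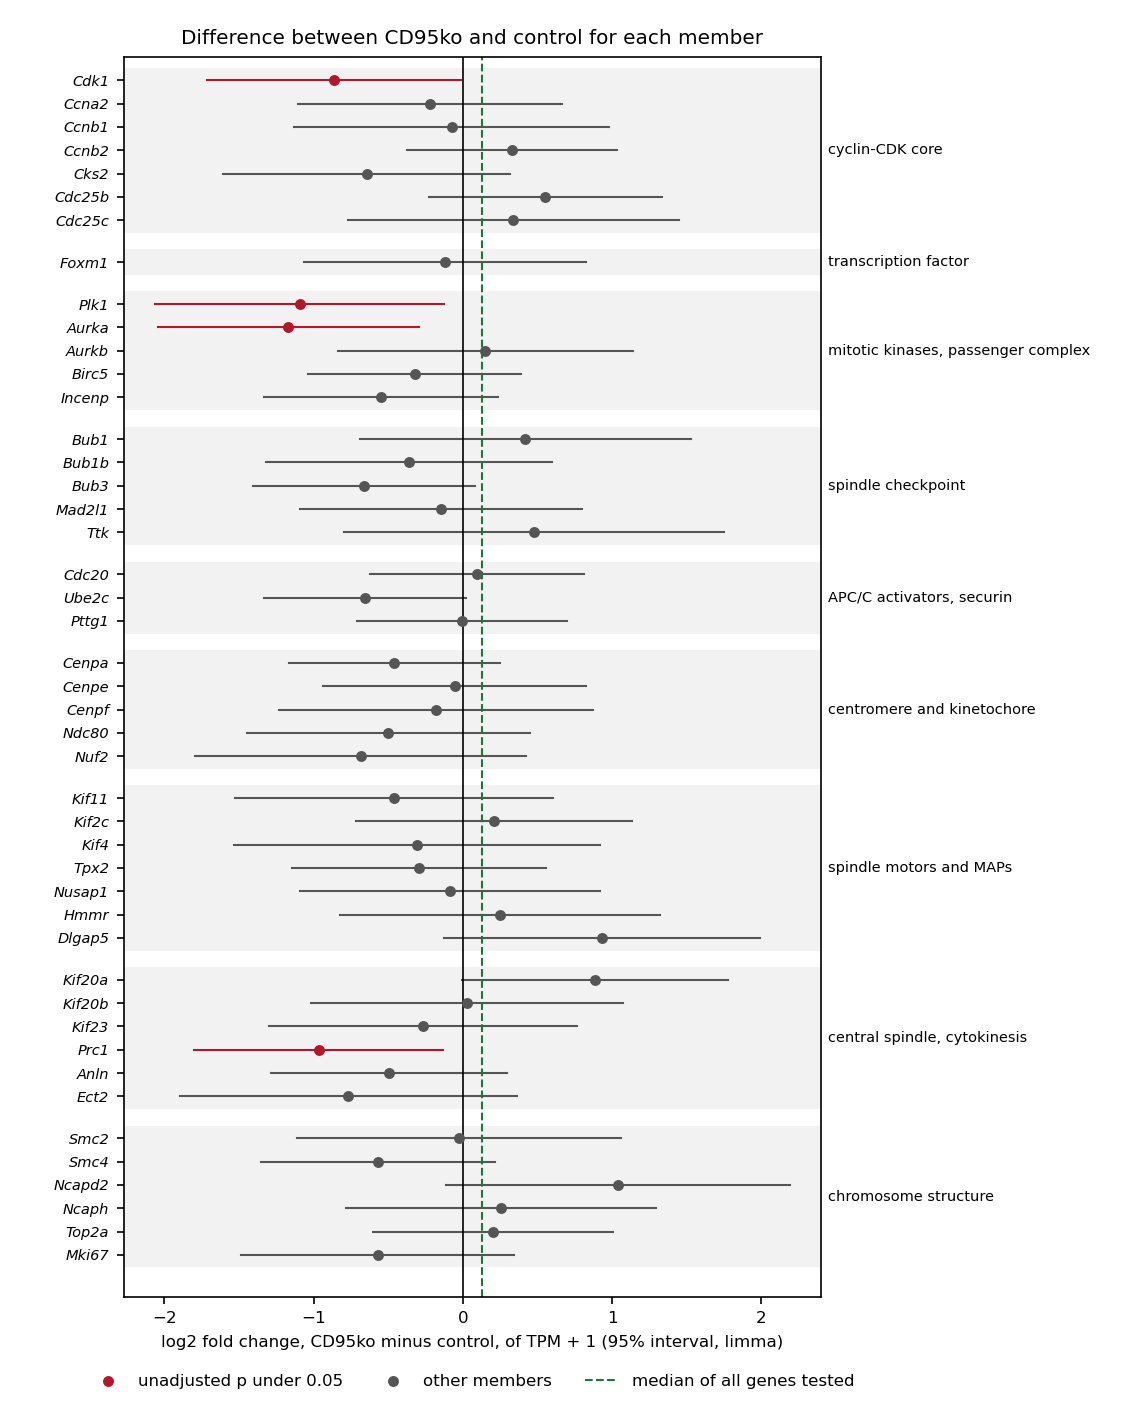
Log2 fold change of TPM + 1 (horizontal axis, CD95ko minus control) of each member with its 95% interval from limma, by role; red marks an unadjusted p under 0.05 and the dashed line is the median of all genes tested, 0.13. The intervals of 41 members include 0, and those of Aurka, Plk1, Prc1 and Cdk1 lie below it.

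In the CDK1 engine itself Cdk1 was lower in both libraries labelled CD95ko, Ccnb2 and Cdc25b were higher in both, and the other 4 genes overlapped between groups. Ccnb2 and Cdc25b also overlapped after centring, and none of the 7 passed the adjusted threshold in limma (1 had an unadjusted p under 0.05, Cdk1). Cdk1, on chromosome 10 (GRCm38, 69335146 to 69352938), encodes the kinase that starts mitosis. It was at 78.9 and 77.8 TPM in the controls, 53.9 TPM in CD95ko 1 and 33.7 TPM in the library labelled CD95ko 2. The control values nearly coincided (78.3 ± 0.785 TPM, SD, n = 2) and both CD95ko values were lower (43.8 ± 14.3 TPM, SD, n = 2), for which limma gave a log2 fold change of -0.86 ± 0.37 SE (adjusted p = 0.326). Ccnb1, the cyclin B1 that activates CDK1, was at 39.4 and 27.1 TPM in the controls, 43.8 TPM in CD95ko 1 and 21.8 TPM in the library labelled CD95ko 2. The CD95ko values lay on either side of both controls. Ccnb2, cyclin B2, was at 96.5 and 90.6 TPM in the controls and 122 and 113 TPM in the libraries labelled CD95ko, so the groups did not overlap by a small margin, with Ccnb2 higher. Cks2, a small subunit that binds CDK1, was at 130 and 149 TPM in the controls, 136 TPM in CD95ko 1 and 57.8 TPM in the library labelled CD95ko 2. Only the last of these 4 values stood apart, and the log2 fold change of Cks2 was -0.04 without that library and -1.25 without CD95ko 1. Cdc25b, a phosphatase that removes the inhibitory phosphates of CDK1, was at 45.8 and 46.0 TPM in the controls and 62.7 and 73.2 TPM in the libraries labelled CD95ko, higher in both. The other members here, Ccna2 and Cdc25c, overlapped between groups.

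Ccnb1 and Cks2 are also uncertain as measured, because 29.4% and 32.3% of the 25-base stretches of their transcripts occur in other annotated genes, mostly pseudogenes. The same held for Cdc20 (33.4%), Plk1 (20.6%, a pseudogene of Plk1 itself), Ndc80 (11.6%) and Ube2c (10.1%), and for the other 39 members the share was under 10%. For Ccnb1, Cks2, Cdc20, Plk1 and Ube2c, the gene that shares most of these stretches has no entry under its name among the deposited values. The submitters' notes name RSEM, and beyond that, how reads shared between such copies were divided is not given in the sources used here. Genes on the opposite strand overlapped 29.3% of the exonic bases of Kif20a (Cdc23) and 22.8% of Ube2c (Tnnc2, at 0 in every library). The share was 15.1% for Kif4 (Pdzd11, at 40.0 to 76.5 TPM) and 12.5% for Ccna2 (Exosc9, at 54.2 to 85.7 TPM). It was 11.1% for Prc1 (Rccd1, at 2.06 to 8.83 TPM) and at most 4.24% for Nusap1, Cdc20 and Cdc25b. Whether strand was used in counting is not given either.

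Foxm1, the transcription factor that drives many genes of the list, was at 32.4 and 23.1 TPM in the controls and 26.4 and 23.9 TPM in the libraries labelled CD95ko. Both CD95ko values fell between those of the controls, with a log2 fold change of -0.12 ± 0.42 SE (95% interval -1.06 to 0.83), so a change of up to about that size in either direction was not detectable here.

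Of the mitotic kinases, Aurka and Plk1 held the lowest log2 fold changes of the 45 members, while that of Aurkb was 0.15. Aurka encodes Aurora A, the kinase of the spindle poles that also activates PLK1 (chromosome 2, 172356190 to 172370535). It was at 83.1 and 76.0 TPM in the controls, 44.8 TPM in CD95ko 1 and 27.0 TPM in the library labelled CD95ko 2. Both CD95ko libraries were far below both controls (79.6 ± 5.03 against 35.9 ± 12.6 TPM, SD, n = 2 each), for which limma gave a log2 fold change of -1.17 ± 0.38 SE (adjusted p = 0.229). Plk1, Polo-like kinase 1 (chromosome 7, 122159439 to 122169873), was at 81.4 and 56.5 TPM in the controls, 42.5 TPM in CD95ko 1 and 23.0 TPM in the library labelled CD95ko 2. The order of the libraries was the same as for Aurka, with a wider gap between the controls, and the log2 fold change was -1.09 ± 0.43 SE (limma adjusted p = 0.28). Under the 12 settings tried, limma's adjusted p ran from 0.0337 to 0.875 for Aurka and from 0.0469 to 0.875 for Plk1, both without change of direction.

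Aurora B works with INCENP and survivin (Birc5) in the chromosomal passenger complex, which corrects wrong attachments and later steers cytokinesis. Its 3 genes on the list differed in pattern. Aurkb was at 49.1 and 29.0 TPM in the controls, 53.3 TPM in CD95ko 1 and 33.1 TPM in the library labelled CD95ko 2, an overlap in which the libraries numbered 1 were the higher of each group. Incenp was at 70.1 and 64.7 TPM in the controls and 48.6 and 43.1 TPM in the libraries labelled CD95ko, lower in both, at 68.0% of the control mean. Birc5 was at 162 and 129 TPM in the controls and 125 and 107 TPM in the libraries labelled CD95ko. Its groups were apart by only the small step from 129 to 125 TPM. Of the 5 kinase and passenger genes, 4 were lower with groups apart (against 18.3% of all genes), and the median log2 fold change was -0.55.

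Among the spindle checkpoint genes only Bub3 had clearly lower values. BUB3 anchors the checkpoint kinases at kinetochores. Bub3 was at 97.3 and 98.2 TPM in the controls, 67.1 TPM in CD95ko 1 and 56.2 TPM in the library labelled CD95ko 2 (log2 fold change -0.66 ± 0.33 SE, limma adjusted p = 0.382). Its control values agreed to within 1 TPM and both CD95ko values were lower. Bub1b, which encodes the checkpoint protein BUBR1, was at 33.6 and 30.8 TPM in the controls, 19.7 TPM in CD95ko 1 and 31.3 TPM in the library labelled CD95ko 2, so that only CD95ko 1 was low. Bub1 was slightly higher in both libraries labelled CD95ko (16.5 and 12.8 against 12.2 and 9.24 TPM), and Mad2l1 and Ttk overlapped. The median of the 5 genes was -0.15.

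Ube2c and Pttg1, which act with or on the anaphase-promoting complex, had the highest mean TPM of the list. Ube2c, the ubiquitin-conjugating enzyme of the complex, was at 220 and 278 TPM in the controls and 152 and 161 TPM in the libraries labelled CD95ko. Both CD95ko values were lower and close together (249 ± 41.0 against 157 ± 6.31 TPM, SD, n = 2 each), with a log2 fold change of -0.66 ± 0.30 SE and a limma adjusted p of 0.348. Pttg1, which encodes securin, the inhibitor of separase, was at 206 and 151 TPM in the controls and 179 and 173 TPM in the libraries labelled CD95ko, all inside the control range. Its log2 fold change was -0.01 ± 0.31 SE (95% interval -0.71 to 0.70), a sign that turned to 0.01 under quantile normalization. Cdc20, the activator that the checkpoint holds back, was at 136 and 120 TPM in the controls and 119 and 156 TPM in the libraries labelled CD95ko, which enclosed the controls.

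All 5 centromere and kinetochore genes had negative fold changes (against 42.6% of all genes), from -0.68 to -0.06, with a median of -0.46. Cenpa, the histone H3 variant that marks centromeres, was at 176 and 143 TPM in the controls and 125 and 106 TPM in the libraries labelled CD95ko, lower in both. Ndc80 and Nuf2 encode partners in the complex that grips microtubules. Ndc80 was at 48.2 and 37.1 TPM in the controls, 38.2 TPM in CD95ko 1 and 23.0 TPM in the library labelled CD95ko 2, with CD95ko 1 inside the control range. Nuf2 was at 19.2 and 13.3 TPM in the controls and 9.34 and 9.77 TPM in the libraries labelled CD95ko, lower in both. Cenpe, a kinetochore motor, and Cenpf overlapped between groups. On the values as deposited no gene of this role reached an unadjusted p under 0.05 in limma, and the smallest adjusted p was 0.52; Nuf2 had an unadjusted p of 0.0394 under quantile normalization and 0.0458 after centring.

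Spindle motors and microtubule-associated proteins had a median log2 fold change of -0.09, which became -0.25 under quantile normalization and -0.29 after centring. As deposited, their median difference between control 2 and control 1 was -0.44 on the log2 scale, where that of all genes was -0.35. Tpx2, which activates Aurora A on the spindle, was at 41.0 and 38.5 TPM in the controls and 30.1 and 34.5 TPM in the libraries labelled CD95ko, modestly lower. Nusap1, a microtubule bundler, was at 31.4 and 26.4 TPM in the controls, 36.2 TPM in CD95ko 1 and 20.2 TPM in the library labelled CD95ko 2, on either side of the controls. Dlgap5, a spindle protein also known as HURP, was at 22.2 and 12.4 TPM in the controls and 27.3 and 39.1 TPM in the libraries labelled CD95ko. Both CD95ko values were higher, with a log2 fold change of 0.93 ± 0.47 SE in limma (adjusted p = 0.386). Kif11, Kif2c, Kif4 and Hmmr overlapped between groups, with log2 fold changes from -0.46 to 0.25.

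Genes of the central spindle and of cytokinesis split in direction although their proteins work side by side. Prc1 encodes the protein that bundles antiparallel microtubules of the central spindle (chromosome 7, 80294450 to 80316259). It was at 78.2 and 72.9 TPM in the controls, 46.3 TPM in CD95ko 1 and 31.5 TPM in the library labelled CD95ko 2. Both CD95ko values were lower (log2 fold change -0.96 ± 0.37 SE, limma adjusted p = 0.273). Kif20a, the kinesin that brings the passenger complex to the central spindle, was at 28.4 and 20.6 TPM in the controls and 46.7 and 44.6 TPM in the libraries labelled CD95ko. These were higher in both and close together, with a log2 fold change of 0.89 ± 0.39 SE and a limma adjusted p of 0.338; Cdc23 on the other strand was at 12.5, 7.22, 15.8 and 7.81 TPM in the same order, and its part in the Kif20a values was not tested. Anln, the actin-binding anillin of the cleavage furrow, was at 77.0 and 69.6 TPM in the controls and 58.8 and 45.4 TPM in the libraries labelled CD95ko, lower in both. Ect2, the exchange factor that activates RhoA there, was at 43.2 and 39.0 TPM in the controls, 38.0 TPM in CD95ko 1 and 14.6 TPM in the library labelled CD95ko 2. CD95ko 1 was within about 1 TPM of control 2, so the difference of Ect2 rested on the other library: its log2 fold change was -0.11 without it and -1.43 without CD95ko 1. Kif23 and Kif20b overlapped between groups.

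Chromosome structure genes had no common direction, with a median log2 fold change of 0.09 that became -0.08 under quantile normalization and -0.11 after centring. Smc4, an ATPase of condensin, was at 201 and 150 TPM in the controls and 145 and 94.4 TPM in the libraries labelled CD95ko, lower in both. Ncapd2, a regulatory subunit of condensin I, was at 28.4 and 11.4 TPM in the controls and 32.8 and 44.7 TPM in the libraries labelled CD95ko. Both were higher, but the controls differed 1.24 on the log2 scale against a log2 fold change of 1.04 ± 0.51 SE (limma adjusted p = 0.378), which was 0.42 without control 2 and 1.66 without control 1. Top2a, the topoisomerase that untangles sister chromatids, was at 136 and 97.0 TPM in the controls, 107 TPM in CD95ko 1 and 163 TPM in the library labelled CD95ko 2, with overlapping groups. Mki67, the gene of the proliferation marker Ki-67, was at 35.5 and 30.3 TPM in the controls and 23.4 and 20.3 TPM in the libraries labelled CD95ko. Both were lower, at 66.3% of the control mean, with a log2 fold change of -0.57 ± 0.40 SE (limma adjusted p = 0.54). Smc2 and Ncaph overlapped.

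**Figure D4:**
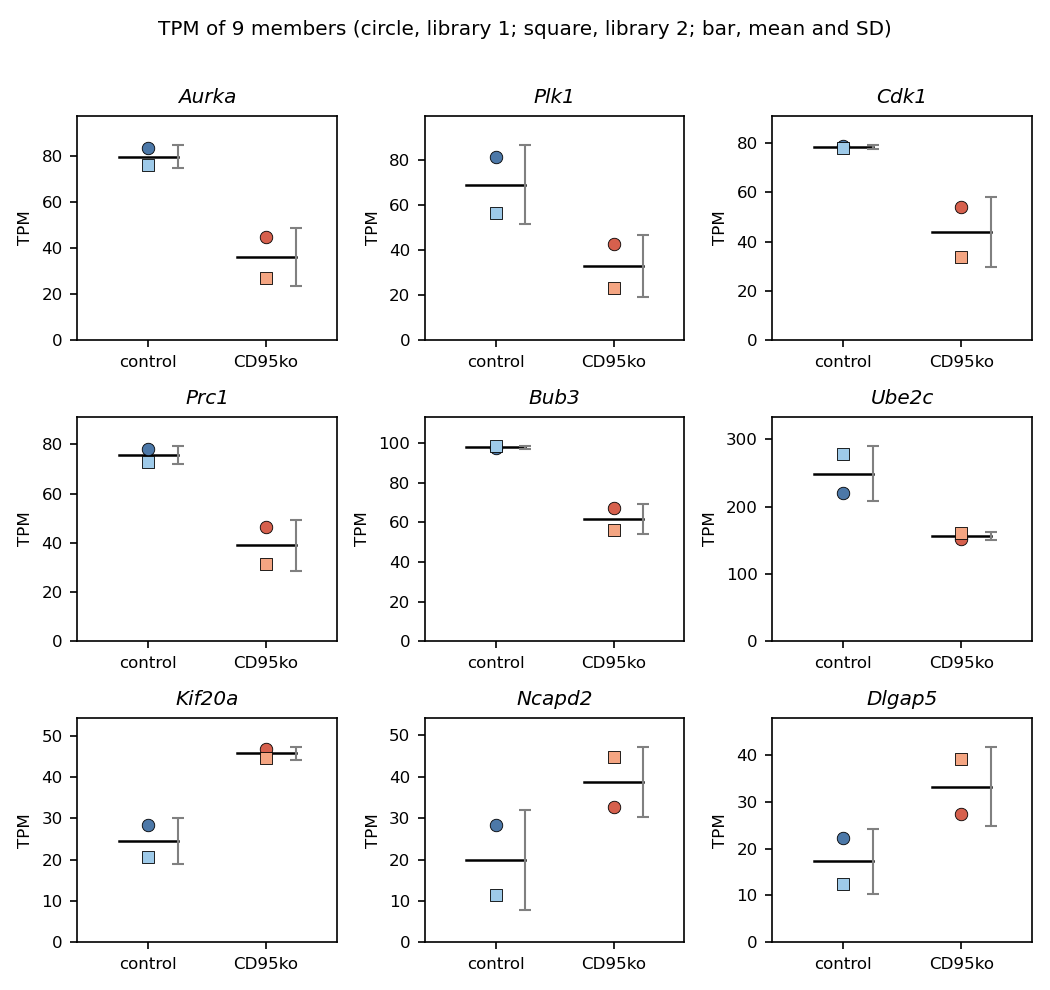
TPM of 9 members by group; circles are library 1, squares library 2, the bar is the group mean and the error bar the SD (n = 2). The upper 6 genes are lower and the bottom row (Kif20a, Ncapd2, Dlgap5) higher in both libraries labelled CD95ko, with control 2 well under control 1 for Ncapd2 (11.4 and 28.4 TPM).

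The 2 libraries labelled CD95ko differed modestly in the members. The one labelled CD95ko 2 was below CD95ko 1 for 30 of 45 (66.7%, against 55.1% of all genes). The median of this difference was -0.18 for the members and -0.10 for all genes. CD95ko 1 had the lowest value of the 4 libraries for 8 members (17.8%, against 13.7% of all genes). The library labelled CD95ko 2 had the lowest value of the 4 libraries for 20 of 45 members (44.4%, against 30.4% of all genes) and control 1 the highest for 25 (55.6%, against 29.2%). Relative to control 1, 34 members were lower in the library labelled CD95ko 2 and 32 in CD95ko 1, where 54.1% and 49.4% of all genes were lower. Relative to control 2 these numbers were 23 and 21, where 39.3% and 31.3% of all genes were lower. The members' median differences from control 2 were -0.15 and 0.04, and those of all genes 0.26 and 0.36. Control 2 itself was below control 1 for 39 of 45 members, with a median difference of -0.29, while the median over all genes was -0.35 and 75.9% of all genes were lower in control 2. Each pair compares single libraries and has no test.

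Other genes of the same pathway, on a list of 80 further G2 and mitosis genes, lay nearer to all genes. All 80 were tested and 0 passed the adjusted threshold in limma; 3 were lower (3.75%, against 5.68% of all genes) and 0 higher (against 9.25%) at an unadjusted p under 0.05. Their median log2 fold change was 0.05, which became -0.14 under quantile normalization and -0.15 after centring, where that of the 45 members was -0.32 and -0.38. The difference between the lists was not tested. Groups did not overlap for 14 lower (17.5%) and 19 higher genes (23.8%), against 18.3% and 29.2% of all genes. The lower ones with the smallest p were Cdkn3, a phosphatase that acts on CDKs (63.9 and 66.1 TPM in the controls, 41.1 TPM in CD95ko 1 and 5.05 TPM in the library labelled CD95ko 2), Cdca8, the borealin subunit of the passenger complex (149 and 137 against 99.9 and 53.3 TPM), and Sgo1, the shugoshin that protects cohesion (30.6 and 19.1 against 13.9 and 7.28 TPM). Cdca8 had the same order of libraries as Incenp, its partner. Lmnb1, lamin B1, was higher (44.8 and 30.1 against 66.5 and 66.6 TPM).

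**Figure D5:**
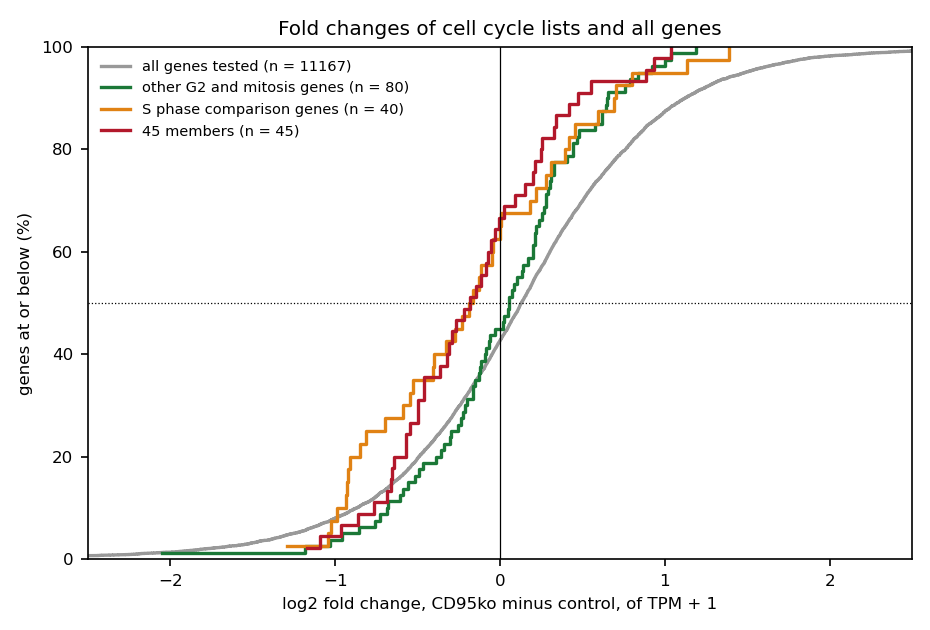
Share of genes (vertical axis, percent) at or below each log2 fold change of TPM + 1 (horizontal axis) for the 45 members, 80 other G2 and mitosis genes, 40 S phase genes and all 11167 genes tested. The curves of the members and the S phase genes cross 50% at -0.18, those of the other G2 and mitosis genes at 0.05 and of all genes at 0.13.

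Upstream regulators were read from a list of 21 MuvB, Rb family, E2F and NF-Y genes, of which 0 passed the adjusted threshold in limma. At an unadjusted p under 0.05 in limma, 1 was lower (4.76%, against 5.68% of all genes) and 2 higher (9.52%, against 9.25%). These shares were near those of all genes. Groups did not overlap for 11 lower genes (52.4%, against 18.3% of all genes) and 6 higher genes (28.6%, against 29.2%). Mybl2, the gene of B-MYB, named after its values were seen, was lower in both (27.5 and 24.2 against 22.45 and 14.2 TPM). E2f4, the E2F of the repressive DREAM complex, was at 164 and 157 TPM in the controls and 104 and 76.8 TPM in the libraries labelled CD95ko, lower in both. Rbl2, the p130 protein of the same complex, was higher (3.92 and 2.95 against 8.74 and 10.8 TPM), as was Lin37, a MuvB subunit (13.4 and 8.82 against 17.7 and 44.5 TPM). Nfyb, a subunit of NF-Y, was lower (40.7 and 34.3 against 23.2 and 18.3 TPM). The median of the list was -0.38.

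CDK inhibitors and p53 pathway genes had 6 tested genes of 9, with a median log2 fold change of 0.16 that became -0.02 under quantile normalization and -0.04 after centring. In limma 0 passed the adjusted threshold. At an unadjusted p under 0.05, 1 was higher (16.7%, against 9.25% of all genes) and 0 lower (against 5.68%). Cdkn2c, the CDK4 and CDK6 inhibitor p18, was at 88.9 and 105 TPM in the controls and 197 and 223 TPM in the libraries labelled CD95ko, higher in both by 1.11 ± 0.31 SE on the log2 scale (limma adjusted p = 0.171). Cdkn1b, the inhibitor p27, was at 41.4 and 52.5 TPM against 75.4 and 78.1 TPM, also higher in both. The inhibitor genes Cdkn1a and Cdkn2d overlapped between groups, with log2 fold changes of 0.20 and 0.11. Mdm2, the ligase that degrades p53, was lower (32.5 and 33.8 against 17.9 and 22.4 TPM), and Trp53 overlapped (94.2 and 69.5 against 88.2 and 31.0 TPM). Of 11 G1 cyclin and CDK genes, Ccnd1, cyclin D1, had the smallest p and was lower, at 277 and 430 TPM in the controls and 171 and 223 TPM in the libraries labelled CD95ko (limma adjusted p = 0.297), and the median was -0.29.

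The S phase, which precedes G2, gave a similar median. The 40 S phase genes had a median log2 fold change of -0.18, and 3 lower (7.5%, against 5.68% of all genes) and 2 higher genes (5%, against 9.25%) at an unadjusted p under 0.05, with 0 past the adjusted threshold in limma. Their median was 0.07 without the library labelled CD95ko 2 and -0.43 without CD95ko 1, while that of the G2 and mitosis members was -0.10 and -0.25. Tk1, thymidine kinase, was at 142 and 134 against 87.6 and 51.6 TPM, Fen1, the flap nuclease, at 49.6 and 64.1 against 31.0 and 23.2 TPM, and Mcm3, a helicase subunit, at 67.8 and 69.3 against 40.2 and 32.2 TPM, all lower in both libraries labelled CD95ko. Gins2, another subunit of the replicative helicase, was higher (26.9 and 18.3 against 45.8 and 77.95 TPM).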

How the data were processed

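The data are 4 RNA-seq libraries of cultured 4T1 cells, 2 control and 2 labelled CD95ko, grouped by sample title. Per the labels' protocols, poly(A) RNA was fragmented, tailed, reverse transcribed by a method based on SMART-seq2, amplified by PCR and cut to 200 to 400 bp; no molecular identifiers are mentioned. The authors deposited 1 TPM value per gene and library, per the file headers. The submitters' processing notes name STAR 2.6.0, RSEM 1.3.0 and mm10; the annotation is not given in the sources used here. TPM divides by transcript length and library, so levels of different genes can be set side by side, but depth is unknown and no counting interval can be given.

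Genes at 1 TPM or more in at least 2 libraries (11167) were compared on log2(TPM + 1), which understates changes of weakly expressed genes, with limma 3.58.1 in R 4.3.3 (eBayes with trend, no covariate, two-sided, Benjamini-Hochberg over all these genes, threshold 0.05). The procedure was tested on simulated data with large known changes only. An exact permutation test of 2 against 2 libraries cannot go below p = 0.333. Nothing states that libraries of a group were independent repeats of 1 condition, so p-values measure only the spread between these libraries.

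The members and gene lists were chosen with earlier results of these data known. Values per library are given for members at an unadjusted p under 0.05, filled up to 12 by size of fold change, for the 2 highest by TPM in each role, for Cdk1, Ccnb1, Plk1, Foxm1, Top2a and Mki67, and for up to 4 genes with the smallest p in each other list; Cdc25b, Incenp, Aurkb, Bub1 and Cdc20 were added after their values were seen. Of the other lists, 7 genes were matched under an older symbol. Positions, shared 25-base stretches and overlaps come from GENCODE M21 (GRCm38). The alternatives were a pseudocount of 0.1, no filter, no trend, robust eBayes, quantile normalization, centring on library medians, the replicate number as a block, and each library left out.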

Additional observations from a re-analysis of the deposited data

How the results depend on the processing

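The number of genes past the adjusted threshold in limma, 6 as reported, was 0 after centring or quantile normalization, 0 with a pseudocount of 0.1, and 0 when the filter or the variance trend was dropped; it was 52 with robust eBayes, and 0 to 1034 with a library left out (1034 without CD95ko 1 and 194 without the library labelled CD95ko 2). Members past it numbered 0 with every setting on 4 libraries and 0 to 3 with a library left out. Lower members at an unadjusted p under 0.05, 4 as reported, numbered 1 without the trend, 7 under quantile normalization, 10 after centring and 0 to 7 with a library left out (0 without control 1 and 0 without control 2); higher members, 0 as reported, numbered 1 (Kif20a) with a pseudocount of 0.1, without the filter, with robust eBayes and under quantile normalization, and 0 to 1 with a library left out. The cause of these shifts was not tested. Lower members with groups apart, 15 as reported, were 24 under quantile normalization, 26 after centring and 16 to 27 with a library left out; the 6 higher ones were 4 after centring and 6 to 17 with a library left out. Leaving a library out can only raise these counts. The members' median log2 fold change stayed negative, from -0.38 to -0.08, and that of the S phase genes ran from -0.434 to 0.0679 with a library left out. With a library left out, 1 group holds a single library that is assumed to vary like the others.

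No replicate block is implied by the labels, which number different lines and clones: same-numbered libraries' deviations correlated at -0.081 across genes. With the replicate block, 2 genes passed the threshold, 0 members passed it, and 3 members were lower at an unadjusted p under 0.05. The sign of the fold change differed under quantile normalization for Kif20b and Pttg1, and after centring, which lowers all fold changes alike, for Aurkb, Cdc20, Kif20b and Top2a. It differed for 18 members when a library was left out, and held under all 12 settings for 27.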

Other observations

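Genes that act beside those of the report were read as values. They were subunits of the anaphase-promoting complex with Fzr1 and Ube2s, and cohesin with its regulators. Of the 16 genes of the first list, 0 passed the adjusted threshold in limma. At an unadjusted p under 0.05, 2 were lower (12.5%, against 5.68% of all genes), Ube2s among them, and 1 was higher (6.25%, against 9.25%). Ube2s, the enzyme that lengthens the ubiquitin chains UBE2C begins, was at 902 and 768 TPM in the controls and 433 and 390 TPM in the libraries labelled CD95ko, lower in both (log2 fold change -1.02 ± 0.28 SE, limma adjusted p = 0.166). Anapc16 was lower (175 and 152 against 115 and 80.1 TPM), as was Anapc11, the RING subunit, by less (50.3 and 51.2 against 40.0 and 25.9 TPM). Anapc2, the cullin subunit that binds Anapc11, was higher, at 40.5 and 25.7 TPM in the controls and 67.7 and 137 TPM in the libraries labelled CD95ko (limma adjusted p = 0.183).

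The 10 genes of cohesin and its regulators had a median log2 fold change of 0.30 (0.14 under quantile normalization and 0.10 after centring). Of these, 0 reached an unadjusted p under 0.05 in limma. Smc1a was at 69.1 and 52.6 TPM in the controls and 94.9 and 84.8 TPM in the libraries labelled CD95ko, higher in both, while Smc3, its partner in the ring, named after its values were seen, was lower in both (74.5 and 61.6 against 60.2 and 51.5 TPM). Mau2, a loader of cohesin, was also higher in both (25.1 and 24.4 against 28.6 and 43.4 TPM), and Nipbl and Stag2 overlapped between groups.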
